A study of Mus musculus with 17 samples.

Results

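The respiratory chain and the ATP synthase of mouse sensory ganglia were followed here through the transcripts of 98 genes, of 78298 gene identifiers counted in all. Members were the protein-coding genes whose symbols mark subunits of complex I (Nduf followed by a, b, c, s or v and a number), complex II (Sdha to Sdhd), complex III (Uqcr), complex IV (Cox4 to Cox8), complex V (Atp5) or the mitochondrially encoded subunits (mt-Nd, mt-Cytb, mt-Co and mt-Atp). A member also needed at least 10 counts in at least 3 of the 17 libraries. Of 100 matching genes, 98 met the minimum, 85 of them nuclear and 13 mitochondrial. The 2 others, Cox8c and a second identifier carrying the symbol Atp5po, had 0 counts in every library. All 98 members also passed the filter on low counts used for testing. The nuclear members comprised 37 genes of complex I, 4 of complex II, 8 of complex III, 18 of complex IV and 18 of complex V. The mitochondrial members comprised 7 of complex I, 1 of complex III, 3 of complex IV and 2 of complex V. Complexes are assigned by symbol, so Ndufa4 is counted with complex I although its protein is known to sit in complex IV.

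The libraries came from the dorsal root ganglia, which hold the cell bodies of sensory neurons, of lumbar levels L4 to L6. They comprised 5 wild-type libraries after a sham operation (sham WT), 5 wild-type libraries after chronic constriction injury (CCI WT), in which the sciatic nerve is loosely tied, 4 sham libraries from the Twik1 knockout (sham KO) and 3 CCI libraries from that knockout (CCI KO, numbered 2 to 4). All carry the label day 30. Twik1 is a potassium channel encoded by Kcnk1, and the deleted part of the gene, any promoter or Cre driver, the strain and the age of the mice are not stated in the labels. Whether each library is a separate animal is not stated either, and the p-values below reflect the spread between libraries, which may be technical.

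The respiratory chain passes electrons from NADH and succinate to oxygen and pumps protons across the inner mitochondrial membrane, and the ATP synthase uses the returning protons to make ATP. Complexes I, III, IV and V are built from nuclear-encoded subunits that are imported and from a core made inside the organelle, whereas complex II is entirely nuclear. The mitochondrial genes are transcribed as long RNAs from both strands of a circular genome and then cut into single messages, and sensory neurons rely on the ATP made this way to power ion pumps and transport along very long axons.

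Libraries held 52.5 to 73.6 M gene counts (M, mega). The nuclear members together took 1.304 to 1.62% of these counts and the mitochondrial members 0.435 to 0.622%. Sensory neuron markers (12 genes) summed to between 14423 and 19832 counts per M scaled library counts (CPM), so the labelled tissue was matched by its defining cells. Kcnk1 was not absent from the libraries labelled knockout: it lay at 94.3 to 139.3 CPM in the 10 wild-type and 75.1 to 114.5 CPM in the 7 knockout libraries, and since the deleted part is unknown, counts over the whole gene do not check the label. Summed injury markers (12 genes) reached 1469 and 1266 CPM in sham KO libraries 1 and 2, against 604 to 676 CPM in sham KO libraries 3 and 4 and 560 to 763 CPM in sham WT. Atf3, an injury-induced transcription factor, lay at 140.6 and 103.3 CPM in those 2 libraries and at 9.42 to 16.8 CPM in sham WT. Results that involve sham KO are therefore given without these libraries where that changes a call or a direction. Each deposited table's name includes a number, which is common to the 9 sham libraries and differs for each CCI group. If it marks a batch, batch and group cannot be told apart in every comparison except genotype in sham.

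The 13 mitochondrial genes lie close together, and their levels cannot be read without the sequences they share with each other and with the nucleus. The following stretches of the GRCm39 mitochondrial genome (plus strand) show where neighbouring members overlap, with the shared bases in capitals. Reads inside the capitals fit both genes, and the library kit keeps no strand.
mt-Atp8 and mt-Atp6, chrM:7917-7979: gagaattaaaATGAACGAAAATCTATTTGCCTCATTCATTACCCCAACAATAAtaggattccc
mt-Nd4l and mt-Nd4, chrM:10157-10183: acctactacaATGCTAAaaattattct
mt-Nd5 and mt-Nd6, chrM:13542-13575: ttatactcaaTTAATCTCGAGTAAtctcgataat
The overlap spans 43 bases for mt-Atp8 and mt-Atp6, which encode ATP synthase subunits. It spans 7 bases for mt-Nd4l and mt-Nd4, core subunits of complex I. It spans 14 bases for mt-Nd5 and mt-Nd6, also complex I subunits, which lie on opposite strands.

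A near-identical nuclear copy of part of the mitochondrial genome lies on chromosome 1, at chr1:24650616-24655269 on the minus strand. It matched mitochondrial bases 6390 to 11042 at 99.936% identity over 4654 aligned bases, with 2 mismatches and 1 gap. The opening 100 bases of mt-Atp8 are printed here because they are identical in the nuclear copy, at chr1:24653794-24653893.
mt-Atp8, chrM:7766-7865, and its nuclear copy: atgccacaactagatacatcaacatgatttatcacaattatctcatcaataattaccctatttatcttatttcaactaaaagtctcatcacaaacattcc
A read lying within such an identical stretch fits both places equally well. As the read length is not stated in the labels, windows of 100 bases were used to describe each gene. Every window of mt-Co2, mt-Atp8, mt-Atp6, mt-Co3 and mt-Nd4l had an exact nuclear copy, as had 98.8% of those of mt-Nd3, 60.75% of mt-Nd4, 30.84% of mt-Co1 and 3.19% of mt-Nd2. The genes mt-Nd1, mt-Nd5, mt-Nd6 and mt-Cytb had none.

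The levels went with that division, and largely also with gene length. Per kilobase of gene, averaged over the 17 libraries, mt-Cytb (cytochrome b of complex III) was highest at 1199 ± 154.1 CPM per kb (SD, n = 17). It was followed by mt-Co1, the catalytic subunit of complex IV, at 972 ± 90.1 CPM per kb and mt-Nd1 at 796 ± 79.4 CPM per kb. The complex I genes mt-Nd4 (353 ± 39.99 CPM per kb), mt-Nd6 (215 ± 15.5), mt-Nd2 (203 ± 29.2) and mt-Nd5 (176 ± 14.6) came next; mt-Nd6 and mt-Nd2 lay within each other's SD. The 6 genes that were wholly or almost wholly duplicated lay lowest: mt-Co3 (92.6 ± 15.99 CPM per kb), mt-Atp6 (87.6 ± 15.2), mt-Co2 (58.9 ± 9.05), mt-Nd3 (6.53 ± 1.86), mt-Nd4l (2.27 ± 0.745) and mt-Atp8 (2.10 ± 1.22). Neighbours mt-Co3 and mt-Atp6, and mt-Nd4l and mt-Atp8, did not differ beyond their spread. These 6 genes were also short: mt-Co3 784 bases, mt-Atp6 681, mt-Co2 684, mt-Nd3 348, mt-Nd4l 297 and mt-Atp8 204. Of the other members only mt-Nd6, at 519 bases, was shorter than mt-Co3. The parts of length and of duplication in these levels were not tested.

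**Figure D1:**
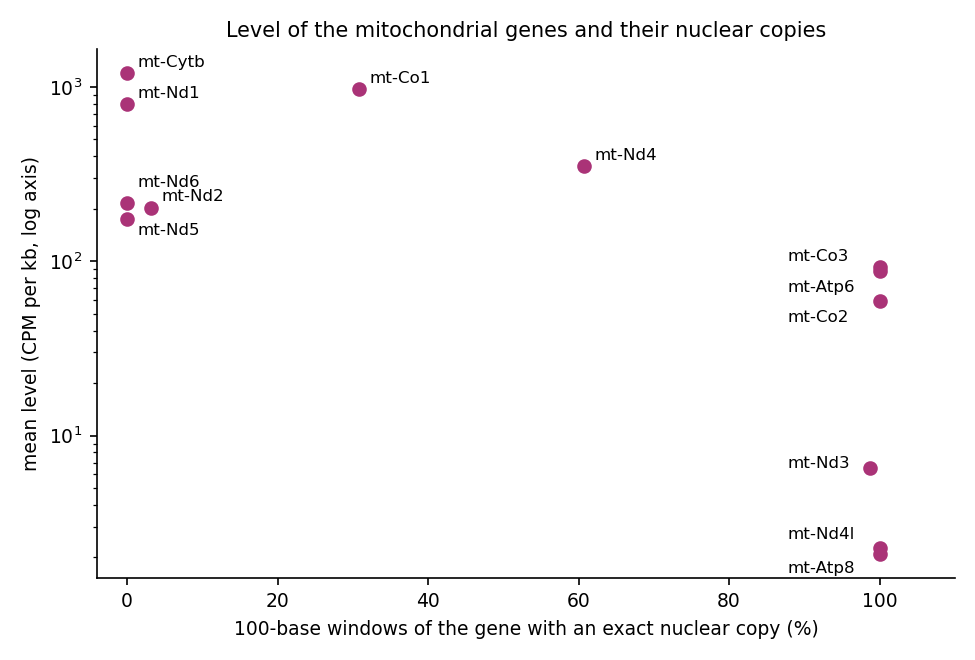
Mean level of each of the 13 mitochondrially encoded members (CPM per kb, log axis, mean over 17 libraries) against the percentage of its 100-base windows with an exact nuclear copy. The 6 genes at or near 100% lie between 2.10 and 92.6 CPM per kb, and the other 7 between 176 and 1199 CPM per kb. The 6 are also short, at 204 to 784 bases, as is mt-Nd6 at 519 bases.

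The genes annotated within the chromosome 1 copy carried counts of their own. Gm28661 held 38863 counts over all libraries beside 40674 for mt-Co2, so that 51.1% of the pair's counts lay on the mitochondrial gene. The pseudogene Atp6-ps held 53959 beside 60208 for mt-Atp6 (52.7% on the mitochondrial gene) and Gm28437 held 61252 beside 73427 for mt-Co3 (54.5%). The pair shares were far higher for the partly duplicated genes, at 96.4% for mt-Co1 with Gm29216 and 97.9% for mt-Nd4 with Gm28439. Gm10222 held 498 counts beside 684 for mt-Nd4l, and Gm28438 held 0 beside 2279 for mt-Nd3. Counts of mt-Atp8 were low throughout, from 7 to 57 per library, and those of mt-Nd4l ran from 10 to 60. How the authors' counter treated reads that fit several places is not stated in the labels, so the levels of these 6 genes are uncertain, and their part in the order above was not tested.

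Among nuclear members, the level per kilobase of all annotated exons was highest for Cox6a1, the form of complex IV subunit 6a found in most tissues, at 525 ± 51.04 CPM per kb (SD, n = 17). Cox8a, likewise the widespread form of its subunit, followed at 269 ± 28.3 CPM per kb. Atp5f1a, the alpha subunit of the ATP synthase's catalytic head, stood at 247 ± 12.1 CPM per kb, within the spread of Cox8a. The lowest 3 were all complex IV forms known from other tissues: Cox7b2 at 0.0473, Cox8b at 0.230 and Cox7a1 at 0.821 CPM per kb. The median nuclear member stood at 34.8 CPM per kb and the median mitochondrial member at 176 CPM per kb. Dividing by the length of the canonical transcript instead raised the nuclear median to 130 CPM per kb and put Ndufa4 (797 ± 89.2 CPM per kb) above Cox6a1 (655 ± 63.6), while the same 3 genes remained lowest.

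Relative to their size, the mitochondrial sums varied more between sham WT libraries than the nuclear sums did. In each other group both varied about as much. Sums of the mitochondrial members in sham WT libraries 1 to 5 were 4601, 5006, 6055, 5293 and 6142 CPM. In CCI WT libraries 1 to 5 they were 4654, 5259, 4764, 4587 and 4791 CPM. Sham KO libraries 1 to 4 held 5023, 4653, 4459 and 4803 CPM, and CCI KO libraries 2 to 4 held 4430, 4989 and 4475 CPM. Sham WT libraries 3 and 5 stood above all others, sham WT library 1 lay inside the range of CCI WT, and the groups overlapped. Group means were 5419 ± 667.5 CPM in sham WT (SD, n = 5), 4811 ± 263.5 in CCI WT (n = 5), 4734 ± 238.1 in sham KO (n = 4) and 4632 ± 310.2 in CCI KO (n = 3). In bulk tissue, fewer cells of a type and less RNA per cell cannot be told apart.

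Sums of the nuclear members were 14711 ± 994 CPM in sham WT, 14476 ± 933 in CCI WT, 14989 ± 653 in sham KO and 14406 ± 992 in CCI KO. The lowest libraries were CCI WT 4 at 12937 CPM and sham WT 4 at 13111 CPM, and the other 15 lay between 13628 and 15786 CPM. The ratio of the mitochondrial to the nuclear sum was 0.412, 0.404 and 0.394 in sham WT libraries 3, 4 and 5 and 0.292 to 0.355 in the remaining 14 libraries. The mitochondrial ribosomal RNAs, which are not members, were also highest in sham WT libraries 3 and 5, at 1144 and 1033 CPM, against 611 to 822 CPM elsewhere.

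**Figure D2:**
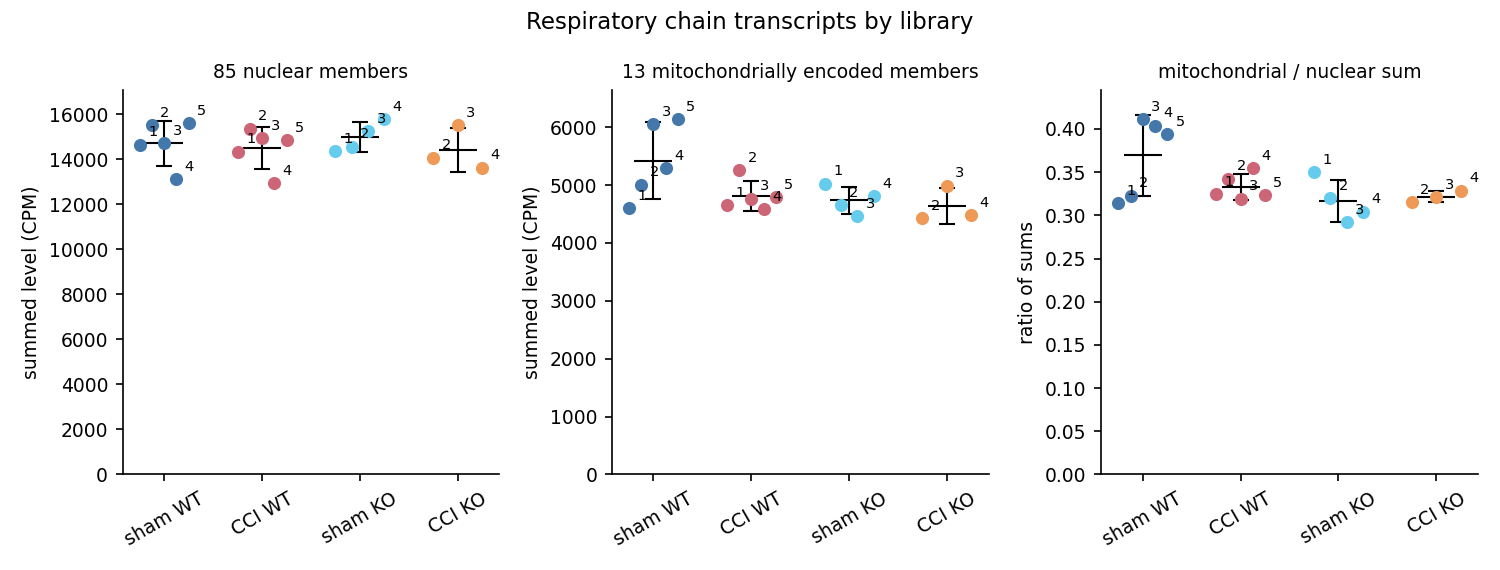
Summed level of the 85 nuclear members (left) and the 13 mitochondrially encoded members (middle), in CPM, and the ratio of the sums (right), for each library by group; numbers are library numbers, and bars give the mean ± SD. Sham WT libraries 3 and 5 lie highest in the middle panel at 6055 and 6142 CPM, and the nuclear sums of all groups overlap.

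Constriction injury in wild type was the comparison with the most called genes, that is, genes with an edgeR quasi-likelihood p under 0.05 after Benjamini-Hochberg adjustment over all 23972 tested genes. It called 3.06% of all tested genes, and 1 of the 98 members, the mitochondrial gene mt-Nd5; an unadjusted p under 0.05 was reached by 13.8% of all genes, 5 of 13 mitochondrial members and 3 of 85 nuclear members. mt-Nd5 (ENSMUSG00000064367, chrM:11742-13565, plus strand) encodes a proton-pumping subunit of the membrane arm of complex I. Sham WT libraries 1 to 5 held 319.7, 330.5, 381.6, 338.0 and 375.3 CPM of mt-Nd5. CCI WT libraries 1 to 5 held 297.6, 321.9, 279.4, 308.4 and 299.3 CPM. Only CCI WT library 2 reached into the sham range, just above sham WT library 1, so the groups overlapped by these 2 libraries. mt-Nd5 fell by 0.21 ± 0.05 on the log2 scale (SE, 95% interval −0.32 to −0.11, edgeR adjusted p = 0.0265), from 349 ± 27.7 to 301.3 ± 15.6 CPM (SD, n = 5 each). The call was lost when sham WT library 3 or 5 or CCI WT library 1, 3, 4 or 5 was left out, with an edgeR adjusted p between 0.0506 and 0.0838, while the change stayed between −0.24 and −0.18.

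The other 12 mitochondrial members were not called, but all 13 log2 changes in wild-type injury were below 0, from −0.54 to −0.06 with a median of −0.20, beside a median of −0.01 over all tested genes. Among members without exact copies, mt-Cytb had a log2 change of −0.22 ± 0.08 (SE), from 1547 ± 222.7 to 1329 ± 75.8 CPM (SD, n = 5 each). mt-Nd1 had −0.16 ± 0.07 and mt-Nd6 −0.06, and mt-Nd2, which is duplicated only in small part, had −0.25 ± 0.10. Of the partly duplicated genes, mt-Nd4 had −0.20 ± 0.07 and mt-Co1 −0.11. The widest spread was in the least counted genes: mt-Atp8 had −0.54 and mt-Nd4l −0.30, and neither reached an unadjusted p under 0.05. The remaining changes were −0.20 for mt-Co3, −0.14 for mt-Atp6, −0.12 for mt-Co2 and −0.06 for mt-Nd3. With the counts of the chromosome 1 copies added to the genes they match, all 13 values again lay below 0, with a median of −0.16.

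By library, the mitochondrial members moved largely together. mt-Cytb held 1286, 1439, 1684, 1471 and 1853 CPM in sham WT libraries 1 to 5 and 1274, 1444, 1364, 1259 and 1303 CPM in CCI WT libraries 1 to 5. Libraries 3 and 5 of sham WT were again the highest, and sham WT library 1 lay within the CCI WT range. mt-Co1 held 1350, 1461, 1821, 1705 and 1737 CPM in sham WT and 1413, 1614, 1442, 1515 and 1469 CPM in CCI WT, with sham WT library 1 below every CCI WT library. mt-Nd6, encoded on the other strand, ran from 99.2 to 129.5 CPM in sham WT and from 104.99 to 121.3 CPM in CCI WT, so its CCI WT values lay wholly within the sham range. In sham WT library 4, mt-Co2 (28.5 CPM), mt-Co3 (51.2), mt-Atp6 (44.99), mt-Nd3, mt-Nd4l and mt-Nd6 were at the lowest values of their group, whereas the other members, among them mt-Nd1 (824 CPM), were not.

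**Figure D3:**
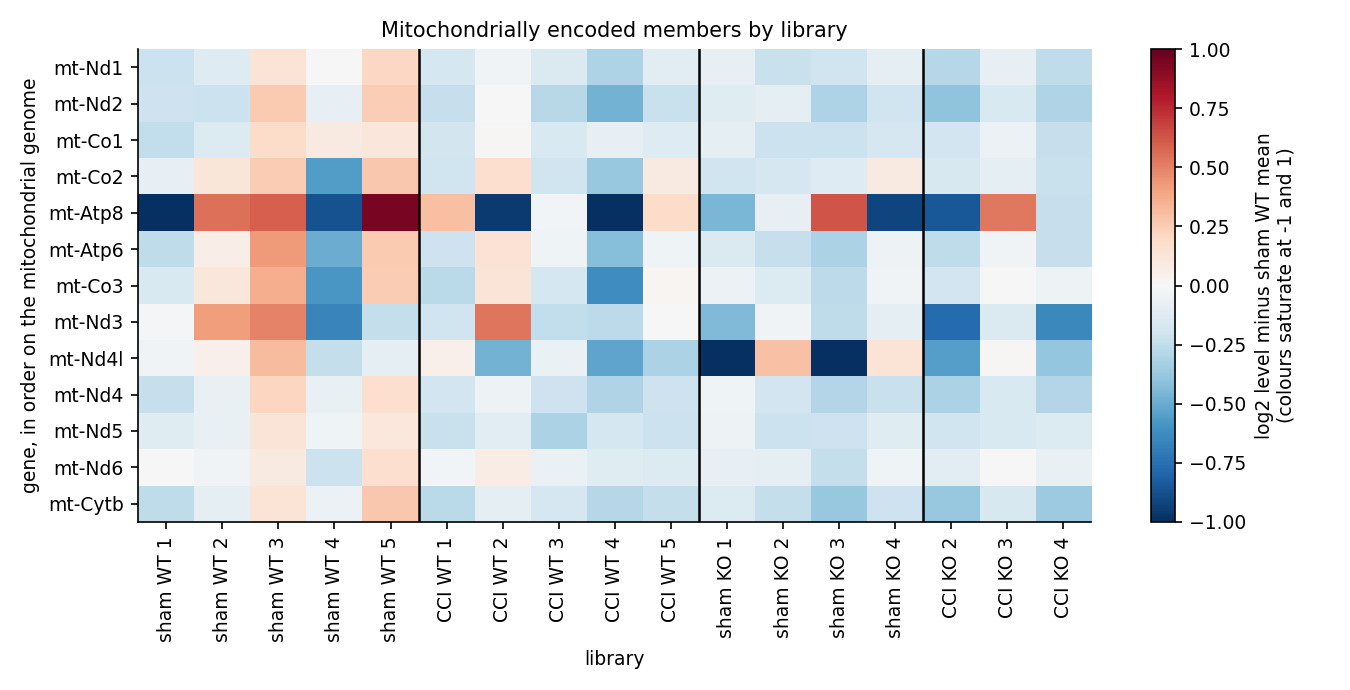
Level of each mitochondrially encoded member in each library, as the log2 level minus the mean of the 5 sham WT libraries, with genes in their order on the mitochondrial genome and black lines between groups; colours saturate at −1 and 1. Sham WT libraries 3 and 5 are red for most genes, and the rows of mt-Atp8, mt-Nd3 and mt-Nd4l, with 0.427, 2.27 and 0.676 CPM on average, vary most.

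Markers of other cells shifted in the same comparison, in which 3.06% of all tested genes were called. The 4 satellite glia markers summed to 416 to 556 CPM in sham WT and 601 to 694 CPM in CCI WT, and 2 of them, Fabp7 and Cdh19, were called higher. The 7 macrophage markers summed to 32.7 to 55.4 CPM in sham WT and 46.6 to 91.8 CPM in CCI WT, and Adgre1, Csf1r and Cx3cr1 were called higher. Among 5 endothelial markers Cldn5 was called higher. Of 3 brown adipocyte markers only Cidea was tested, and it was called lower, from 1.88 to 5.98 CPM in sham WT to 1.01 to 1.33 CPM in CCI WT. Ucp1, which defines brown fat cells, was at no more than 0.192 CPM in any library. Of 12 sensory neuron markers Tubb3 was called higher, while 8 had changes below 0 and the median was −0.06. All 12 injury markers were called higher. No marker in these lists was at 0 in every library, and the part of these cells in the mt-Nd5 result was not tested.

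In the knockout, injury called 0.0834% of all tested genes and 0 of the 98 members by edgeR; DESeq2 and limma-voom also called 0. An unadjusted p under 0.05 was reached by 8.63% of all genes, 0 mitochondrial and 2 nuclear members. Sham KO libraries 1 to 4 held 336.9, 299.6, 301.5 and 321.0 CPM of mt-Nd5, and CCI KO libraries 2 to 4 held 303.1, 312.8 and 316.2 CPM, wholly within the sham KO range. The log2 change of mt-Nd5 was −0.02 ± 0.07 (SE, 95% interval −0.15 to 0.11). Of the 13 mitochondrial members, 6 had a change above 0 and 7 below, with a median of −0.02. Without CCI KO library 3, the highest of its group in the mitochondrial sum, 1 was above 0 and the median was −0.12; over all alternatives 1 to 6 were above 0. The difference between the injury effects, knockout minus wild type, was 0.19 ± 0.08 for mt-Nd5 (unadjusted p = 0.0303, edgeR adjusted p = 0.824), so the fall of mt-Nd5 in wild type was not shown to differ in the knockout. That interaction called 0% of all tested genes and 0 members, and an unadjusted p under 0.05 was reached by 5.87% of all genes, 1 mitochondrial and 0 nuclear members. DESeq2 and limma-voom likewise called 0 members. In it 12 of 13 mitochondrial members had values above 0 (median 0.14), mt-Nd3 being the exception at −0.25, and 66 of 85 nuclear members had values below 0 (median −0.06), beside a median of −0.01 over all genes. The nuclear median was −0.01 without sham WT library 4, with 38 members above 0, and −0.14 without CCI KO library 3. The mitochondrial median was 0.08 without CCI KO library 3.

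Genotype in sham libraries called 1.0% of all tested genes and 0 of the 98 members by edgeR, DESeq2 or limma-voom. An unadjusted p under 0.05 was reached by 11.4% of all genes, 5 mitochondrial and 0 nuclear members. All 13 mitochondrial members had log2 changes below 0 in sham KO against sham WT, from −0.43 to −0.12 with a median of −0.19. This comparison and injury in wild type share the 5 sham WT libraries, in which libraries 3 and 5 were high, so the directions in these comparisons are not independent of each other. mt-Cytb had −0.25 ± 0.08 (SE, edgeR adjusted p = 0.2002), mt-Nd4 −0.20 ± 0.08, mt-Co1 −0.18 ± 0.07, mt-Nd1 −0.16 ± 0.07 and mt-Nd5 −0.15 ± 0.06. Levels of mt-Cytb in sham KO libraries 1 to 4 were 1392, 1303, 1179 and 1328 CPM; library 3 lay below every sham WT library and the other 3 within the sham WT range. The 8 myelinating Schwann cell markers summed to 9765 to 13963 CPM in sham WT and to 4458 to 6332 CPM in sham KO, with 6 called lower; their part in the mitochondrial values was not tested.

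Genotype in CCI libraries called 0.684% of all tested genes and 0 members by edgeR, DESeq2 or limma-voom. An unadjusted p under 0.05 was reached by 8.78% of all genes, 0 mitochondrial and 3 nuclear members. The mitochondrial members had 3 values above and 10 below 0, with a median of −0.05. That median was −0.01 without CCI WT library 2 or CCI KO library 2, with 6 above 0 in each case, and −0.11 without CCI KO library 3. Without CCI WT library 4 only 1 was above 0. mt-Nd5 had 0.04 ± 0.06 (SE). mt-Nd3 had the lowest value at −0.52, with 85 to 208 counts per library. The 8 myelinating Schwann cell markers were lower in this comparison as well. They summed to 10532 to 14612 CPM in CCI WT and to 5848 to 7193 CPM in CCI KO, with 4 called lower. Their part in the mitochondrial values was not tested here either.

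**Figure D4:**
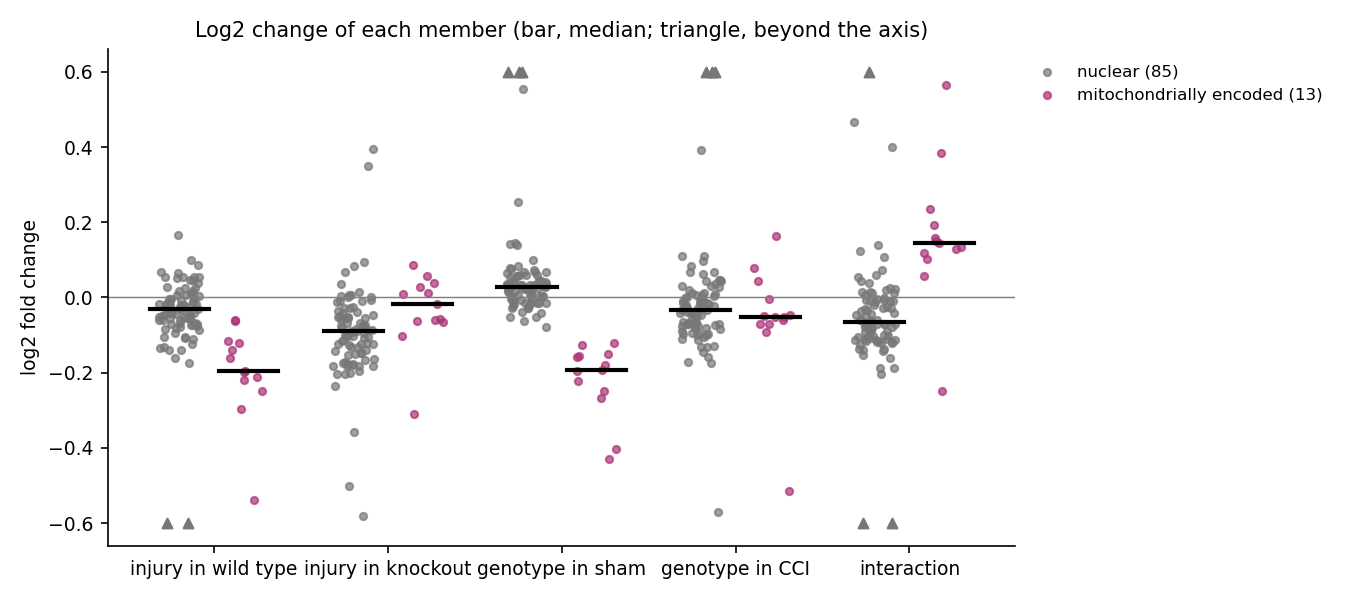
Log2 change of each of the 85 nuclear (grey) and 13 mitochondrially encoded (purple) members in the 5 comparisons, with a black bar at the median; triangles mark members beyond ±0.6. The mitochondrial medians are −0.20 for injury in wild type and −0.19 for genotype in sham, and the nuclear medians lie between −0.09 and 0.03 in all 5.

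The 79 nuclear members at 10 CPM or more had log2 changes between −0.24 and 0.15 in every comparison, and the low-level forms of complex IV reached from −1.56 to 2.51. None of the 85 was called in any of the 5 by edgeR, DESeq2 or limma-voom; the smallest edgeR adjusted p was 0.335 in wild-type injury. In that comparison 23 of 85 had a change above 0 and 62 below, with a median of −0.03 that turned to 0.02 without CCI WT library 4. In the knockout 12 were above and 73 below, with a median of −0.09 that was −0.18 without CCI KO library 3 and −0.05 without CCI KO library 4. Libraries 2 and 4 of CCI KO were also low in short transcripts, as given with the transcript lengths further on. Genotype in sham gave 62 above and 23 below (median 0.03), which turned to 28 above and 57 below without sham WT library 4. Genotype in CCI gave 27 above and 58 below (median −0.03), and 50 above and 35 below without CCI KO library 4. The direction of the nuclear median thus rested on single libraries in 3 of these 4 comparisons.

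Complex I, which takes electrons from NADH, had 30 of 37 nuclear members below 0 in wild-type injury (median −0.05) and 36 of 37 in knockout injury (median −0.09). Ndufb5, an accessory subunit of its membrane arm, had the smallest p of all nuclear members in both injury comparisons. It lay at 100.9 ± 8.27 CPM in sham WT and 91.6 ± 7.33 CPM in CCI WT (SD, n = 5 each), a log2 change of −0.14 ± 0.07 (SE). In sham KO it lay at 102.5 ± 5.63 CPM (n = 4) and in CCI KO at 89.2 ± 7.08 CPM (n = 3), a change of −0.20 ± 0.08 (edgeR adjusted p = 0.441). The groups of both genotypes overlapped. Ndufv3, Ndufc2 and Ndufb3 followed in wild-type injury, at −0.13 ± 0.06, −0.18 ± 0.09 and −0.16 ± 0.10, and Ndufb10 in knockout injury at −0.18 ± 0.08. Ndufa12 had the smallest p of genotype in sham, at 0.15 ± 0.07.

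Complex II, which oxidises succinate and belongs also to the citric acid cycle, was the steadiest: the coefficient of variation over the 17 libraries ran from 4.77 to 6.18% in its 4 members, against a median of 9.92% over the 85. Sdhd, a membrane anchor of the complex, lay at 254.6 ± 13.5 CPM in sham WT and 236.9 ± 11.2 CPM in CCI WT, a change of −0.10 ± 0.05 (SE), and at 260.4 ± 9.85 CPM in sham KO and 238.8 ± 16.3 CPM in CCI KO, a change of −0.12 ± 0.06. Sdha, the flavin-carrying subunit, lay at 541.8 to 580.1 CPM in CCI KO and at 493.8 to 535.9 CPM in CCI WT. The genotype difference of 0.11 ± 0.05 was not past the threshold (edgeR adjusted p = 0.558). Sdha was named for its small p, and the share of all tested genes without overlap between these groups was not counted. Sdhb, the iron-sulfur subunit, had an interaction value of −0.09 ± 0.08.

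Complex III, which passes electrons from ubiquinol to cytochrome c, had 7 of 8 nuclear members below 0 in each injury comparison, with medians of −0.04 in wild type and −0.10 in the knockout. Uqcr11, its smallest subunit, had −0.24 ± 0.12 (SE) in knockout injury, and Uqcrc1, a core subunit, had 0.08 ± 0.04 in genotype in sham. Complex V members were split evenly in wild-type injury, with 9 above and 9 below 0 and a median of 0.00. In knockout injury 13 of the 18 were below 0 (median −0.07). Complex IV had 14 of 18 below 0 in wild-type injury (median −0.03) and 15 of 18 in knockout injury (median −0.12). Over all 23972 tested genes, 12288 were below 0 in wild-type injury and 12212 in knockout injury. Counts by complex were not repeated without single libraries. Atp5f1a held 1092.9, 1056.2, 1110.4, 1052.4 and 1068.8 CPM in CCI WT libraries 1 to 5 and 1192.7, 1164.1 and 1124.9 CPM in CCI KO libraries 2 to 4. The genotype difference in CCI was 0.11 ± 0.05 on the log2 scale, which was not past the threshold (edgeR adjusted p = 0.514). Atp5f1a, like Sdha, was named for its small p.

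Complex IV, where oxygen is reduced, exists in tissue-specific forms, and in these ganglia the widespread form of each subunit was the main form in each pair. Per kilobase of exon, Cox4i1 stood at 29.0 CPM and Cox4i2, a form linked to lung and low oxygen, at 0.863 CPM. Cox6b1 stood at 136 and its testis form Cox6b2 at 1.501 CPM per kb. Cox7a2 stood at 31.2 and the muscle form Cox7a1 at 0.821 CPM per kb, and Cox7b at 35.0 beside 0.0473 for Cox7b2. Cox6a1 and Cox8a exceeded their muscle forms Cox6a2 (1.95 CPM per kb) and Cox8b (0.230 CPM per kb) by more than the spread over libraries in each pair. Cox6b2 was the low-level form with the smallest p in the knockout, at 1.23, 1.14 and 1.23 CPM in CCI KO against 1.52 to 2.19 CPM in sham KO, a change of −0.58 ± 0.29 (SE, edgeR adjusted p = 0.589). Cox7b2 had the smallest p of genotype in CCI, at 2.51 ± 1.13, but was at 0 in 3 of 5 CCI WT libraries, so this fitted value is no measure of size. In genotype in sham, Cox5a had 0.14 ± 0.08 and Cox7a1 0.63 ± 0.43; without sham KO library 3 the latter was 0.34.

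Muscle forms set single libraries apart. Cox7a1 was highest in sham KO library 3, at 1.01 CPM against 0.287 to 0.679 CPM in the other 16 libraries. Cox6a2 (ENSMUSG00000030785, chr7:127804607-127805559) held 0.512, 0.0698, 2.46, 0.969 and 0.0164 CPM in sham WT libraries 1 to 5 and 0.294, 1.204, 0.403, 0.685 and 1.304 CPM in CCI WT. Sham KO libraries 1 to 4 held 0.271, 0.312, 6.495 and 0.464 CPM, and CCI KO libraries 2 to 4 held 2.51, 2.16 and 2.52 CPM. Sham KO library 3 was the highest by far. Summed levels of 6 skeletal muscle markers were 13.6, 3.39, 193, 141 and 2.73 CPM in sham WT libraries 1 to 5. They were 6.88, 42.3, 81.9, 93.8 and 72.5 CPM in CCI WT libraries 1 to 5. Sham KO libraries 1 to 4 held 13.7, 15.8, 946 and 5.73 CPM, and CCI KO libraries 2 to 4 held 250, 172 and 143 CPM. Cox6a2 was lowest in sham WT library 5, but its order did not follow the markers throughout. Sham WT library 4 and CCI KO library 4 had similar marker sums, with 0.969 and 2.52 CPM of Cox6a2. Cox8b (ENSMUSG00000025488, chr7:140477069-140480359) was likewise highest in sham KO library 3, at 3.01 CPM, followed by sham WT library 3 at 1.38 CPM, and was at 0 in 4 libraries. Exon bases of Cox8b lie to 51.5% over exons of Psmd13 on the opposite strand, so its counts are uncertain. The genotype difference of Cox6a2 in CCI was 1.62 ± 1.18 (SE, edgeR adjusted p = 0.812). It passed the threshold at the same size when only the 8 CCI libraries were fitted (1.62 ± 0.40, edgeR adjusted p = 0.0441). The part of muscle RNA in these values was not tested.

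**Figure D5:**
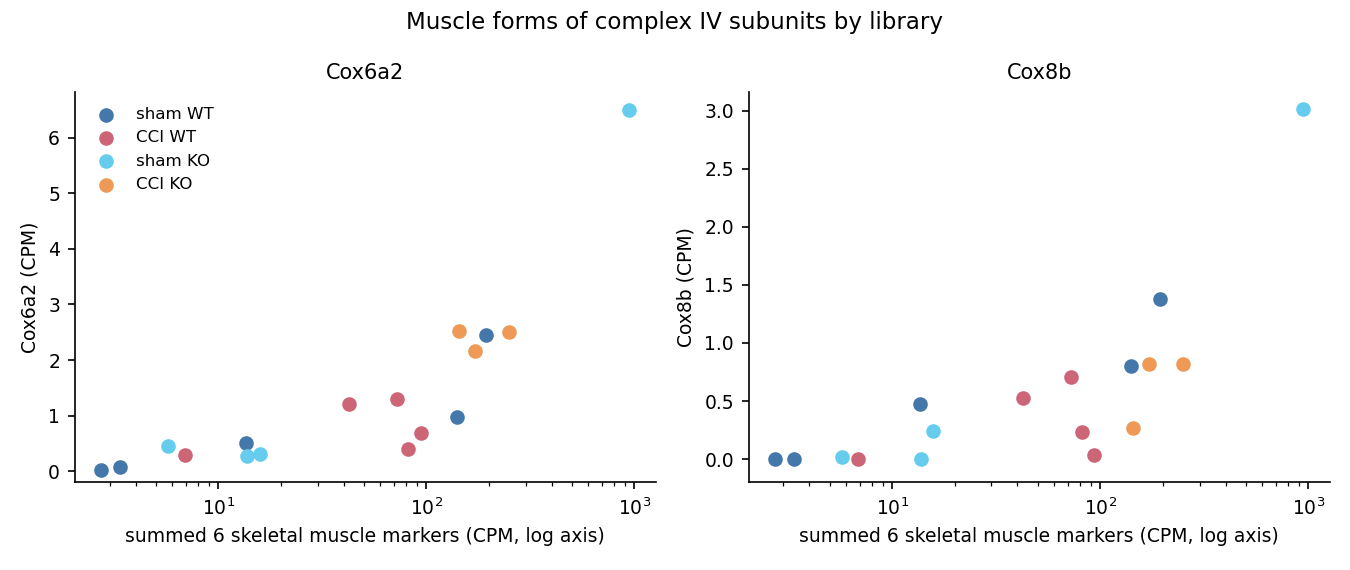
Level of Cox6a2 (left) and Cox8b (right) in each library, in CPM, against the summed level of 6 skeletal muscle markers (CPM, log axis), coloured by group. Sham KO library 3 lies at the upper right with 946 CPM of markers, 6.495 CPM of Cox6a2 and 3.01 CPM of Cox8b.

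In library 4 of both wild-type groups, where the nuclear sums were lowest, short transcripts were low. Long members were low too, by less. Only genes with a mean of 10 CPM or more over the libraries were used here. Of these, 23 nuclear members had a canonical transcript under 700 bases. Against the mean of all libraries, their median log2 deviation was −0.30 in sham WT library 4 and −0.31 in CCI WT library 4. The 30 members of at least 1500 bases had −0.14 and −0.16. Over all protein-coding genes at that level, members included, the same split gave −0.33 and −0.25 for 91 short transcripts. It gave 0.04 and 0.01 for 8671 long transcripts, so long members were low where long coding transcripts as a whole were not. The part of transcript length in the low nuclear sums was not tested. CCI KO libraries 2 and 4 had −0.15 and −0.18 for short members, −0.08 and −0.13 for long members, and −0.14 each for all short coding transcripts. CCI KO library 3 had 0.09 for short members. The part of this shift in the nuclear values of knockout injury was not tested. Cox6a1, at 289 CPM in sham WT library 4 against 390 to 411 CPM in the rest of its group, and Cox8a, at 193.5 against 247 to 269 CPM, are examples. Without library 4 of both wild-type groups, mt-Nd5 had a change of −0.23 ± 0.06 (SE, edgeR adjusted p = 0.0781) and no member was called in wild-type injury.

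Promoters of nuclear members were searched for the motifs of factors known to drive respiratory genes, on both strands, from 250 bases before to 50 after the annotated start in GRCm39. The NRF1 core GCATGCGC was found in 8 of 85 promoters (9.41%), beside 4.20% of 16124 protein-coding genes with at least 10 counts in 3 libraries. The YY1 motif AAGATGGC was found in 5.88% beside 2.90%, the ERR motif CAAGGTCA in 3.53% beside 1.31%, the ETS motif CCGGAAGT of GABPA in 5.88% beside 5.51%, and CCAAT in 37.65% beside 39.03%. In 77 promoters of mitochondrial ribosomal proteins, NRF1 was in 9.09%, YY1 in 7.79%, ERR in 3.90%, ETS in 14.29% and CCAAT in 35.06%. The higher shares of NRF1, YY1 and ERR were thus not particular to the members. In the 250 bases before the start alone, the share was 5.88% beside 2.88% for NRF1, 0.0% beside 1.54% for YY1 and 1.18% beside 1.17% for ERR, and ETS was at 2.35% beside 3.27%. The NRF1 letters overlap their own reverse complement, no motif contains another, and a promoter was counted once per motif. Of the 85 promoters, 43 held none of the 5 motifs. The promoters of Cox8a and Cox8b are printed because these forms of the same subunit ranked 2 and 84 of 85 in level per kilobase. They run 5′ to 3′ on the gene's strand with matches in capitals.
Cox8a, chr19:7194915-7195214, minus strand: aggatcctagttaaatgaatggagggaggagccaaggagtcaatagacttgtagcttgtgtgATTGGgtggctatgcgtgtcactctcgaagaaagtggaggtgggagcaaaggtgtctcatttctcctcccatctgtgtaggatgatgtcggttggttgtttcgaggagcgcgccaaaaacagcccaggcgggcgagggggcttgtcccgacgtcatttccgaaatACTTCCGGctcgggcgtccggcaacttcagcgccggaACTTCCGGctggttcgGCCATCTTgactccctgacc
Cox8b, chr7:140480310-140480609, minus strand: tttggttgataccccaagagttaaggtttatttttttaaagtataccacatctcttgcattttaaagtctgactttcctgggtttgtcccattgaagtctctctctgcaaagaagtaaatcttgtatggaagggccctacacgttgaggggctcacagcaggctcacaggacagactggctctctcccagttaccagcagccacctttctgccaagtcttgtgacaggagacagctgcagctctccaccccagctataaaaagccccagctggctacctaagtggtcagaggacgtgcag
The Cox8a window held matches to 3 of the motifs, ETS, YY1 and CCAAT, and the Cox8b window held none, which says only that these letters are not in this window.

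Other genes that build, feed or regulate the chain were mostly not called. The shares called over all tested genes were 3.06% in wild-type injury, 1.0% in genotype in sham and 0.684% in genotype in CCI. Beside them, 1 called gene in a list is no result about that list. Of 53 tested assembly factors, 1 rose in wild-type injury: Ttc19, which helps complex III mature, from 52.2 to 58.8 CPM in sham WT to 63.1 to 74.7 CPM in CCI WT. The change was 0.28 ± 0.06 (SE, edgeR adjusted p = 0.0114). It just missed the threshold without CCI WT library 4 (0.0529). Of 17 mitochondrial stress response genes, Psat1, an enzyme of serine synthesis, rose by 0.36 ± 0.09 in wild-type injury (edgeR adjusted p = 0.0212), a call lost when any of 6 wild-type libraries was left out (sham 1, 3 and 4, CCI 1, 2 and 5). Phgdh, which opens the same pathway, fell by 0.38 ± 0.07 in sham KO (edgeR adjusted p = 0.00591), from 95.5 to 107.7 CPM in sham WT to 72.5 to 86.3 CPM, and by 0.32 ± 0.08 in CCI KO (edgeR adjusted p = 0.0428). The former call was lost without sham KO libraries 1 and 2 together, at a change of −0.32 (edgeR adjusted p = 0.176), and was kept in 28 of 29 alternatives, whereas the latter kept its call in 15 of 29 alternatives. Of 16 genes of mitochondrial dynamics and mitophagy, Bnip3, a mitophagy receptor, fell by 0.25 ± 0.06 in wild-type injury (edgeR adjusted p = 0.0244), a call lost without sham WT library 4 or 5 or CCI WT library 2, 4 or 5. Of 25 glycolysis genes, Slc2a3, a neuronal glucose transporter, rose by 0.54 ± 0.12 in sham KO (edgeR adjusted p = 0.0483). It lay at 128.7 and 126.8 CPM in sham KO libraries 1 and 2 and at 77.5 and 82.4 CPM in libraries 3 and 4, and without the former pair its change was 0.17 (edgeR adjusted p = 0.620); the call was kept in 10 of 29 alternatives.

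No gene was called by edgeR in any comparison among 77 mitochondrial ribosomal proteins, 31 genes of mitochondrial genome maintenance and RNA, 15 transcriptional regulators, 18 genes of the citric acid cycle and pyruvate dehydrogenase, 14 electron carriers and nucleotide exchangers, 13 uncoupling and antioxidant proteins and 7 complex-like proteins outside the symbol rule. The mitochondrial ribosomal proteins, which translate the 13 mitochondrial messages, had 56 of 77 values below 0 in wild-type injury (median −0.04) and 64 of 77 in knockout injury (median −0.09). Tfam, which packages the mitochondrial genome and starts its transcription, had −0.03 ± 0.11 (SE) in wild-type injury and 0.15 ± 0.11 in genotype in sham. Polrmt, the mitochondrial RNA polymerase, had 0.00 ± 0.08 and 0.02 ± 0.08 in the same comparisons.

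Some members cannot be separated from other genes in these counts. Exons of Ndufa13, Ndufa3, Ndufb1, Ndufb11, Ndufs7, Cox5a, Cox8b, Atp5if1 and Atp5mk overlap exons of a gene on the opposite strand over more than 30% of their length, up to 67.8% for Ndufb11 with Rbm10. Cox5b-ps, annotated as protein-coding, is named as a copy of Cox5b, and the counts of both are uncertain.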

How the data were processed

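Bulk RNA sequencing measured lumbar dorsal root ganglia in 17 libraries; the PicoPure isolation and SMART-Seq v4 amplification kits, per the labels' protocols, keep no strand. Per the submitters' processing notes, the authors used bcl2fastq 2.20.0.422, STAR 2.7.11a and build GRCm39. Each deposited table gives unnormalised counts of reads per Ensembl identifier. The names of the deposited tables give htseq-count as the counter. Its settings, annotation and handling of multiply mapped reads are unknown (not given in the sources used here). Totals and tests leave out 5 summary lines; ambiguous reads took 7.63 to 8.17% and reads outside genes 4.03 to 4.55%. GENCODE M39 matched 78168 of 78298 identifiers.

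Depth was 52.5 to 73.6 M gene counts (M, mega) per library. Of 46200 genes with any count, 23972 passed filterByExpr (minimum count 10, minimum total 15) and were tested with edgeR's robust quasi-likelihood test over all 17 libraries, one mean per group (13 residual degrees of freedom, factors by the trimmed mean of M values from 0.983 to 1.03), with Benjamini-Hochberg adjustment at 0.05. The script was tested on simulated data. Nuclear copies were found with BLAST 2.17.0 against GRCm39; promoters start at GENCODE canonical starts. Length classes (700 and 1500 bases) were chosen after seeing the data. Software was R 4.3.3, edgeR 4.0.16, limma 3.58.1, DESeq2 1.42.0, sva 3.50.0 and Python 3.11.15.

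The members and gene lists were chosen with earlier results of these data known. Genes were named by rule: all 13 mitochondrial members, called nuclear members or else the 5 of smallest p per comparison, the 3 highest and 3 lowest nuclear members per length, the complex IV isoform pairs, and up to 4 called genes per list. Other genes were named after their values were seen. Alternatives were other scalings, no filter or a stricter filter (1 CPM in 5 libraries), DESeq2, limma-voom with quality weights, only the groups compared, a replicate block, 1 surrogate variable, leaving out each library, and leaving out sham KO libraries 1 and 2. Added after seeing the data were leaving out both wild-type libraries 4, adding the counts of nuclear copies, and canonical transcript length.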

Additional observations from a re-analysis of the deposited data

Results flagged for a closer look

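Single libraries stood far from the rest of their group, by a gap to the nearest neighbour that was large against the group's range, in 10 of 123 sets of 4 or 5 libraries; chance gives about 1 in 20. Cox6a2 was 6.495 CPM in sham KO library 3 against 0.271 to 0.464 CPM in the other 3 libraries, and Cox8b was 3.01 CPM there against 0 to 0.239 CPM. In sham WT library 4, Cox6a1 was low at 288.6 CPM (others 389.6 to 410.9 CPM), Cox8a at 193.5 CPM (247.3 to 269.0 CPM) and Ndufv3 at 106.8 CPM (122.1 to 127.1 CPM). In CCI WT library 4, Ndufc2 was low at 88.6 CPM (111.8 to 114.5 CPM). In sham KO library 4, Cox7a2 was high at 208.6 CPM (185.3 to 186.3 CPM), Uqcr11 at 155.4 CPM (146.95 to 147.9 CPM) and Ndufb3 at 119.8 CPM (109.9 to 110.4 CPM). In CCI WT library 2, mt-Nd3 was high at 3.59 CPM (2.02 to 2.44 CPM).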

How the results depend on the processing

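The fall of mt-Nd5 in wild-type injury kept its direction in all 29 alternatives and its call in 11 of 12 that did not leave out a single library, with an edgeR, DESeq2 or limma adjusted p from 0.00363 to 0.0781; it was lost without both wild-type libraries 4, where 0 mitochondrial members were called. It kept its call in 11 of 17 fits that left out a library, and the number of mitochondrial members called in these ran from 0 to 3. With no filter on low counts, 5 mitochondrial members were called in wild-type injury and 3 in genotype in sham; mt-Nd1, mt-Nd2, mt-Nd4 and mt-Cytb joined mt-Nd5 in the former and mt-Nd4, mt-Cytb and mt-Co1 passed in the latter. That fit tested 46200 genes and also called 36 genes higher and 41 lower in the interaction, where 0 were called with the filter, and none of these were members. With only the groups compared, 1 nuclear member, Cox6a2, was called in genotype in CCI. All other counts of called members were as in the main analysis; the cause of these differences was not tested.

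All 13 mitochondrial members stayed below 0 in genotype in sham in all 29 alternatives, and in wild-type injury in 26 of 29, with 1 above 0 by limma-voom and without sham WT library 2 or 3. Medians of the mitochondrial members ran from −0.24 to −0.12 in both comparisons. Library numbers paired the samples weakly at most: the correlations of same-numbered deviations in wild-type injury were 0.03, −0.03, 0.14, 0.27 and −0.05. In knockout injury and the genotype comparisons they ran from −0.03 to 0.34, and libraries numbered 3 were highest in each. With the number as a replicate block, mt-Nd5 had −0.21 ± 0.06 (SE, edgeR adjusted p = 0.0451), and 1 mitochondrial and 0 nuclear members were called. Summed levels moved by less than 1 SD under every scaling tried. In promoter windows of the 250 bases before the start, the YY1 motif was in 0.0% of nuclear members, beside 1.54% of measured protein-coding genes, and canonical transcript length gave a nuclear median of 130 CPM per kb. By their highest library, counts were fewest for mt-Atp8, mt-Nd4l, Cox7a1 and Cox7b2, at no more than 60, which limits the precision of their changes.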
